A study of Mus musculus with 18 samples.

Results

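The genes described here serve the making of ribosomes: 40 mouse genes of ribosome biogenesis and RNA polymerase I transcription, taken by gene name from a given list, out of 54532 genes in the table and 13267 that passed the count filter. All 40 were found, all 40 passed that filter and all 40 are annotated as protein coding. The cells were primary microglia from newborn pups aged 0 to 3 days, kept in mixed culture for 10 days before isolation, in 6 groups of 3 libraries. The first 2 groups had the genotype mTrem2 +/+ (called Trem2+/+ from here), without and with 0N4R tau fibrils at 1 ug/ml. The other 4 had the genotype hTrem2 R47H/+ (called R47H/+), without and with tau, and without and with 1 uM MK2206, an inhibitor of the kinase Akt. Every group had a pre-treatment of 6 hours, which was 0.01% DMSO where no MK2206 was given. No Trem2+/+ group received MK2206, and how long tau was left on the cells is not given in the sources used here. Whether the 3 libraries of a group are separate cultures or animals is not in the labels, and p-values therefore measure only the spread between these libraries, which may be technical.

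Ribosomes are built in the nucleolus, where RNA polymerase I copies the ribosomal DNA into a long precursor that is modified, cut, folded and joined with ribosomal proteins. Myc is a transcription factor known to drive many genes of this pathway, and growth signals that pass through Akt and mTORC1 are known to raise both RNA polymerase I activity and ribosome assembly. In microglia, as in other macrophages, the demand for new ribosomes is tied to growth, division and the production of secreted proteins. The 40 genes fall into 5 roles. The first holds 5 genes, the RNA polymerase I subunit genes Polr1a, Polr1b and Polr1e, the initiation factor gene Rrn3, and Myc. The next holds 8 genes for proteins of the small nucleolar ribonucleoproteins that modify the precursor: Nop56, Nop58 and Fbl for the box C/D particles, Dkc1, Gar1 and Nhp2 for the H/ACA particles, the chaperone gene Nolc1 and the U3 particle gene Rrp9. A set of 12 genes serves the small subunit (Wdr43, Wdr75, Utp4, Utp14a, Utp15, Utp20, Heatr1, Nop14, Noc4l, Rrp12, Tsr1 and Nob1) and 11 serve the large subunit (Rrs1, Nop2, Nop16, Bop1, Pes1, Wdr12, Noc2l, Noc3l, Rrp1b, Gnl3 and Grwd1). The last 4 are the abundant nucleolar proteins Npm1 and Ncl, the RNA helicase Ddx21 and Mybbp1a.

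Libraries held between 16288531 and 20686299 counts, of which between 19739 and 32592 fell in the 40 genes together, and no gene of the 40 had fewer than 31 counts in a library. In 2 libraries, Trem2+/+ replicate 3 and R47H/+ with tau replicate 2, short genes read high and long genes low, with slopes of -1.27 and -0.60 (log2 CPM for each 10-fold step in length), where the 16 others had slopes from -0.10 to 0.19. CPM is the count scaled to a fixed library size after TMM scaling. Trem2 itself lay between 935.0 and 1894 CPM in Trem2+/+ cells without tau, the highest in the length-shifted replicate 3. In R47H/+ cells without tau it lay between 451.2 and 489.1 CPM. How hTrem2 R47H/+ was made is not in the labels, so whether reads of both alleles are counted under this mouse gene is not known. Summed microglial markers lay between 6816 and 14730 CPM per library, the highest being the length-shifted Trem2+/+ replicate 3, although Tmem119 averaged at most 1.57 CPM in a group. The neuron list reached at most 4.66 CPM in sum, and the astrocyte list summed to between 54.9 and 107.4 CPM per library, with Gfap, its defining gene, at 1.09 CPM or less on average. Within that list Aldh1l1 averaged 27.2 CPM in Trem2+/+ cells and 71.2 CPM with tau, and Fabp7 31.3 and 10.3 CPM. The oligodendrocyte lineage list summed to between 219.7 and 306.3 CPM, with Cnp at 63.4 CPM in Trem2+/+ cells and 168.1 CPM with tau, and Mbp at 121.8 and 86.4 CPM. The fibroblast and vessel list summed to between 6.07 and 13.98 CPM in Trem2+/+ cells and to between 42.1 and 47.5 CPM with tau, mostly through the receptor gene Kdr (8.64 and 41.1 CPM on average), with Cldn5 and Rgs5 at 0 counts. The border macrophage, monocyte and granulocyte list summed to between 774.9 and 1328 CPM in Trem2+/+ cells, the highest in replicate 3, and to between 708.6 and 759.9 CPM with tau. Its members went both ways: Mrc1 averaged 477.4 and 333.9 CPM, Pf4 463.3 and 214.4 CPM, and the monocyte gene Ly6c2 4.66 and 145.7 CPM. Markers also moved with genotype. In R47H/+ against Trem2+/+ cells without tau, 3 of 7 tested astrocyte markers were called lower and 1 higher, 4 of 12 microglial markers higher and 1 lower, and 2 of 4 fibroblast and vessel markers higher, with Kdr at 28 CPM in R47H/+ cells. The oligodendrocyte lineage list had 1 of 10 higher and 1 lower, and the border macrophage, monocyte and granulocyte list 1 of 5 higher and 2 lower. Of all genes tested, 8.22% were called higher and 6.83% lower. MK2206 without tau lowered 4 of the 12 microglial, 1 of 10 oligodendrocyte lineage and 1 of 5 border list markers and raised none of these, beside 1.36% of all genes called lower. Tau in R47H/+ cells gave 2 higher and 5 lower of 12 microglial markers, and 2 higher and 5 lower of 10 oligodendrocyte lineage markers. Of all genes 15% were higher and 12.6% lower. With MK2206, tau gave 4 higher and 2 lower of the 12 and 2 higher and 3 lower of the 10, beside 14.3% and 11.3% of all genes. The part of these markers in the genotype, tau and MK2206 comparisons below was not tested. In bulk RNA a lower level in each cell and fewer cells of a type that expresses the gene cannot be told apart.

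Most of the 40 genes were lowest in R47H/+ cells that received both MK2206 and tau. That group held the lowest mean CPM for 31 of the 40, against 16.7% of all genes tested, and Trem2+/+ cells without tau held the highest for 19, against 29.1% of all genes. Compared per length, Npm1, a nucleolar chaperone, led in every group, from 57.3 RPKM in Trem2+/+ cells with tau to 102 RPKM in R47H/+ cells with MK2206. Polr1e, an RNA polymerase I subunit gene, was last in every group with at most 1.18 RPKM. The median gene of the 40 lay between 4.43 RPKM, with MK2206 and tau, and 6.19 RPKM in Trem2+/+ cells. The gap between the highest and the lowest group was widest for Myc, at 9.38-fold, followed by Grwd1 at 3.33-fold and Nop16 at 2.65-fold, and without both length-shifted libraries these were 9.94-fold, 2.68-fold and 1.64-fold, with Utp20 (2.63-fold) next after Grwd1. Over all libraries it was 1.16-fold for Pes1 and 1.18-fold for Rrn3.

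**Figure D1:**
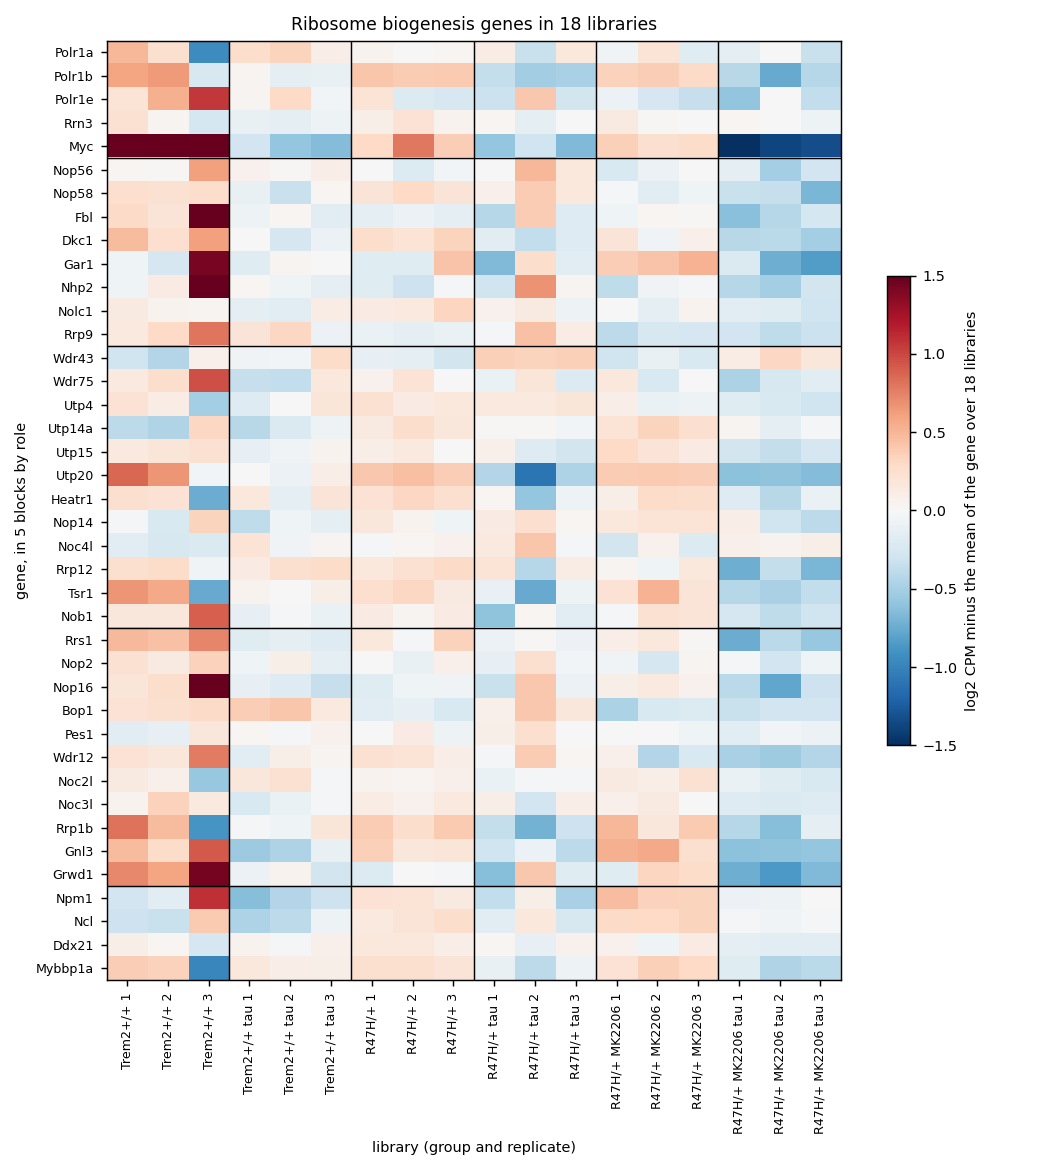
Each row is 1 of the 40 genes in 5 blocks by role and each column 1 of the 18 libraries; colour is log2 CPM minus the mean of the gene over all 18 libraries, and values past 1.5 in either direction take the end colours. Trem2+/+ replicate 3 stands apart from its group in both directions, and the 3 libraries with MK2206 and tau are blue for most genes.

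The 40 genes lie on 18 chromosomes and are between 1146 and 11955 bp long as counted, with a median of 4038 bp. Some of them carry RNAs that their own pathway uses. Of the 40, 7 (17.5%) have a small nucleolar RNA gene inside them on the same strand, against 264 of 13267 genes tested (1.99%), and these 7 hold 21 such genes: 5 in Nop56, 4 in Nop58, 3 each in Wdr43, Gnl3 and Ncl, 2 in Tsr1 and 1 in Dkc1. The small RNAs themselves were close to unread in these libraries, with Snord53 inside Wdr43 the highest at 79 counts over all 18 libraries. A gene on the opposite strand overlaps 17 of the 40, among them Nop56, Dkc1, Bop1, Gnl3, Tsr1, Rrp9 and Wdr12. The strand setting of the counting is not given in the sources used here, so reads of such pairs cannot be told apart.

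Promoter sequences from RefSeq (GRCm38.p6, 250 bases before to 50 after the annotated start) were found for 34 of the 40 genes, in 38 promoters. Myc is known to bind the E-box CACGTG, which reads the same on both strands. It occurs in the promoters of 9 of the 34 genes (26.5%), against 11.9% of 9779 tested genes with a promoter in the table and 8.09% of all genes there. CCAAT, searched on both strands, occurs in 10 of the 34 (29.4%), against 43.1% of tested genes. A match describes the letters and does not show that a factor is bound. The E-boxes are shown with their surroundings, 26 bases on the strand of the gene with the E-box in capitals, because these genes did not share 1 response to tau.
Grwd1: gccggagtcgCACGTGtgaaaccgga
Mybbp1a: gactgtcttctgagccCACGTGtttg
Nop2: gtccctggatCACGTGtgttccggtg
Pes1: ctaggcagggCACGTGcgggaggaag
Rrn3: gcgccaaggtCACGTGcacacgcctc
Rrn3: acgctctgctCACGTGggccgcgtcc
Tsr1: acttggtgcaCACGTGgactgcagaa
Utp20: gcggcactaactaCACGTGaggaaaa
Utp4: cgcaagcgcgCACGTGgggccggggc
Wdr43: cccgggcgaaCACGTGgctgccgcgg
Of these 10 E-boxes, 7 begin between 3 and 41 bases after the annotated start, and 3 begin before it, at 48 and 215 bases in Rrn3 and 60 bases in Nop2. The Grwd1 stretch is chr7:45830740-45830765 on the minus strand, the Utp20 stretch chr10:88826765-88826790 on the minus strand, and the Wdr43 stretch chr17:71616222-71616247 on the plus strand. With MK2206 in the medium, tau lowered Grwd1, Tsr1 and Utp20 and raised Wdr43, which shows the motif beside both directions. In that comparison the 9 genes with CACGTG had a median log2 change of -0.21 and the 25 without had -0.32.

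Myc (ENSMUSG00000022346, chromosome 15, 61985391 to 61990374, GRCm38) was the gene of the 40 with the largest range. Its levels in the 3 libraries of each group were as follows. In Trem2+/+ cells they were 21, 16.2 and 15.5 CPM, and with tau 4.35, 3.51 and 3.35 CPM. In R47H/+ cells they were 6.58, 9.30 and 6.87 CPM, and with tau 3.53, 4.31 and 3.31 CPM. All R47H/+ libraries without tau lay below all Trem2+/+ libraries without tau, while the tau groups of both genotypes covered the same range. With MK2206 the levels were 6.85, 6.32 and 6.48 CPM, which overlap those of R47H/+ cells without it. With MK2206 and tau they were 1.60, 1.97 and 2.05 CPM, below every other library of the study. Myc thus fell with tau in Trem2+/+ cells by 2.23 on the log2 scale (SE 0.179, adjusted p = 8.44e-08 edgeR, quasi-likelihood test, Benjamini-Hochberg over all genes tested), in R47H/+ cells by 1.03 (SE 0.180, adjusted p = 0.000418) and in R47H/+ cells with MK2206 by 1.81 (SE 0.192, adjusted p = 2.34e-06). These 3 calls held in every alternative tried.

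**Figure D2:**
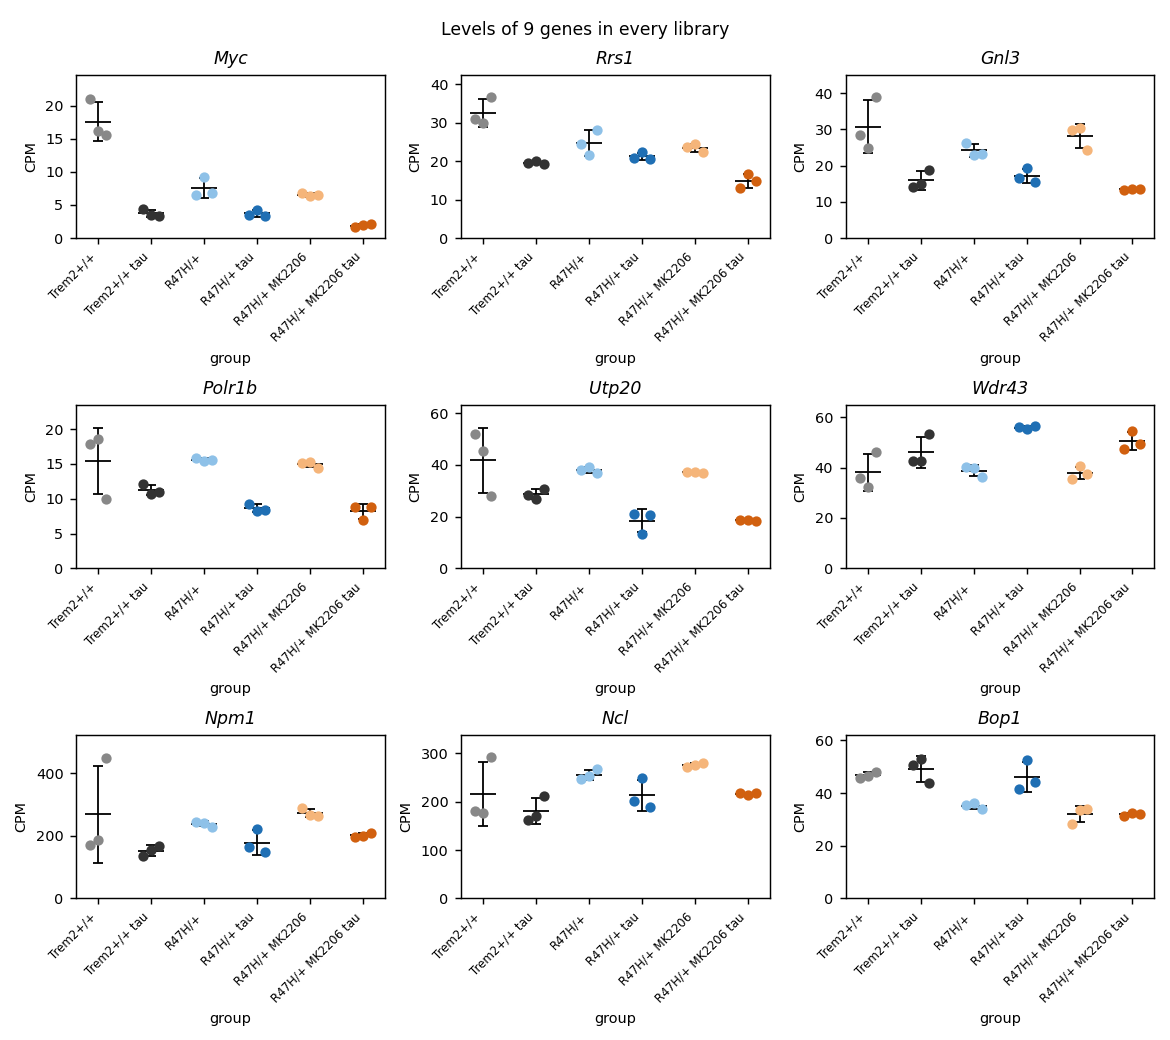
CPM of 9 of the 40 genes, 1 panel a gene with its own axis from 0; points are libraries, the long line is the mean and the bar its SD in each of the 6 groups of 3 libraries. Myc, Rrs1 and Gnl3 are lowest with MK2206 and tau, Wdr43 is highest in R47H/+ cells with tau, and the high Npm1 and Ncl points in Trem2+/+ cells are both replicate 3.

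Without tau, R47H/+ cells had less Myc mRNA than Trem2+/+ cells, while the share of the 40 genes called lay near that of all genes. Besides Myc, 4 of 11 large subunit genes and 2 of 8 genes of the modifying particles were called lower over all libraries. Of the 40 genes 7 were called lower and none higher (adjusted p under 0.05), that is 17.5% beside 15.1% of all genes tested. Of 13267 genes, 6.83% were called lower. The median log2 change of the 40 was -0.10 against -0.02 for all genes. Myc fell by 1.21 (SE 0.170, adjusted p = 1e-04, edgeR), and this call held in every alternative. Grwd1, a chaperone for a ribosomal protein, measured 16.4, 14.99 and 27 CPM in Trem2+/+ cells and 8.59, 9.94 and 9.77 CPM in R47H/+ cells. The groups do not overlap, and Grwd1 fell by 1.04 (SE 0.246, adjusted p = 0.0084). Its value of 27 CPM is the length-shifted Trem2+/+ replicate 3. With 1 library left out at a time the change of Grwd1 lay between -1.20 and -0.76 and stayed called. The call ended only where the 2 groups were fitted alone. Bop1, a scaffold of a complex needed for the large subunit, measured 45.8, 46.6 and 48.1 CPM in Trem2+/+ cells and 35.4, 36.2 and 33.8 CPM in R47H/+ cells. Those libraries lie close together within each group and apart between groups, and Bop1 fell by 0.41 (SE 0.110, adjusted p = 0.0171), a call that ended without R47H/+ replicate 1 (adjusted p = 0.0556) or replicate 3 (adjusted p = 0.0741).

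The calls of Fbl, Nop16, Rrp9 and Rrs1 in R47H/+ cells ended without Trem2+/+ replicate 3, and the changes of Fbl and Nop16 shrank most. Those of Fbl, Nop16 and Rrp9 also ended without any 1 of the R47H/+ libraries, and that of Rrs1 without R47H/+ replicate 1 or 2. Without an R47H/+ library Fbl stayed between -1.04 and -1.01 and Nop16 between -1.03 and -0.97. Fbl, the methyltransferase of the box C/D particles, measured 43.1, 40.2 and 113.3 CPM in Trem2+/+ cells and 31.8, 33.0 and 31.9 CPM in R47H/+ cells. The third Trem2+/+ library is more than any other of the study, and the log2 change of -1.02 (SE 0.3, adjusted p = 0.0304) became -0.39 (adjusted p = 0.0997) without it. Nop16 went from -1.01 to -0.35, Rrp9 from -0.56 to -0.37 and Rrs1 from -0.39 to -0.32 when that library was left out, and none of these passed the threshold then. With the other length-shifted library also left out, Fbl (-0.37, adjusted p = 0.00482), Rrp9 (-0.35, adjusted p = 0.0244) and Rrs1 (-0.30, adjusted p = 0.0334) were called and Nop16 (-0.33, adjusted p = 0.0538) was not. Without both length-shifted libraries, 12 of the 40 were called, 9 lower and 3 higher, beside 28.9% of all genes. These calls lay in all 5 roles, with 2 of the 4 abundant nucleolar genes higher and 0 lower. The 3 that rose were Utp14a by 0.61, Ncl by 0.52 (adjusted p = 5.66e-05) and Npm1 by 0.40 (adjusted p = 0.00057) on the log2 scale. Npm1 reads 172.1, 187.8 and 447.6 CPM in Trem2+/+ cells and 243.3, 241.9 and 229.5 CPM in R47H/+ cells, so its direction turns on replicate 3: over all libraries its log2 change was -0.18 (SE 0.262, adjusted p = 0.68). Ncl, the other abundant nucleolar protein, showed 180.1, 176.8 and 293.3 CPM against 246.1, 254.0 and 267.3 CPM.

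**Figure D3:**
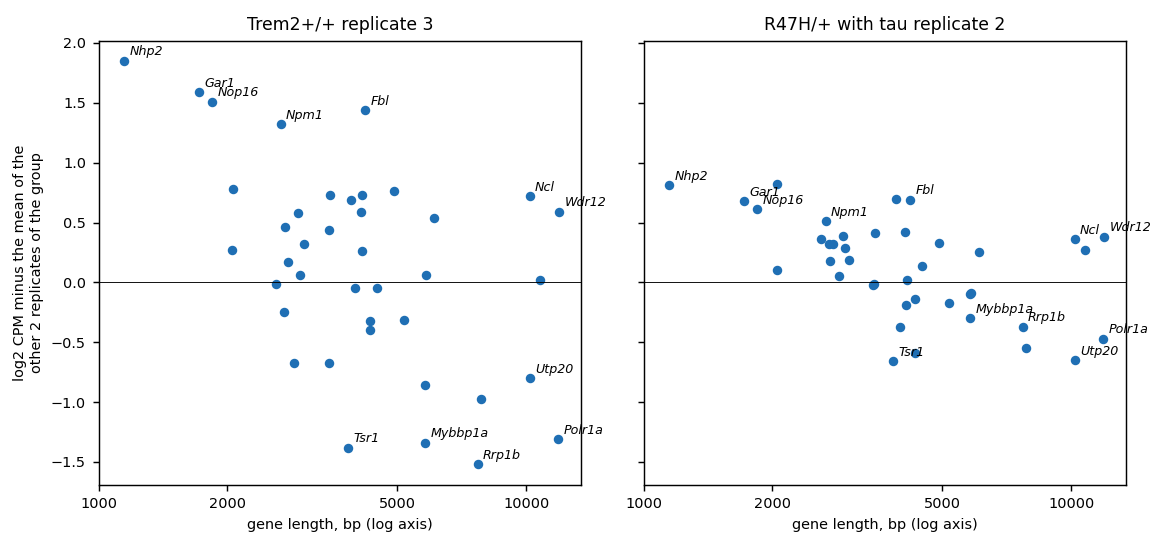
Each point is 1 of the 40 genes, with gene length in bp on a log axis and, upward, its log2 CPM in the named library minus the mean of the other 2 replicates of the group. In both libraries short genes such as Nhp2 and Gar1 lie high and long genes such as Polr1a and Utp20 low, with Ncl and Wdr12, which are long and lie high, as exceptions.

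With tau fibrils in Trem2+/+ cells, 12 of the 40 genes were called lower and none higher. These make 30.0%, near the 26.5% of all genes called either way, of which 12.1% were called lower. In the role of the RNA polymerase I genes only Myc was called (1 of 5), and among the abundant nucleolar proteins only Npm1 (1 of 4). The log2 change was negative for 29 of the 40, and the median was -0.28 against -0.04 for all genes. Rrs1, which brings a ribosomal RNA into the large subunit, measured 30.9, 29.9 and 36.7 CPM without tau, against 19.5, 20.1 and 19.3 CPM with it. Every library with tau lay below every library without, and Rrs1 fell by 0.73 (SE 0.120, adjusted p = 0.000242, edgeR). Gnl3, the nucleolar GTPase nucleostemin, measured 28.6, 24.8 and 38.9 CPM without tau, against 14.1, 14.8 and 18.9 CPM with it. It fell by 0.95 (SE 0.162, adjusted p = 0.000328), and the calls of Myc, Rrs1, Gnl3 and Grwd1 (which fell by 1.07) held in every alternative. Dkc1, the pseudouridine synthase of the H/ACA particles, measured 13.2, 11.2 and 14.6 CPM without tau, against 9.47, 7.94 and 8.86 CPM with it. It fell by 0.57 (SE 0.125, adjusted p = 0.00278) and lost its call only where the 2 groups were fitted alone (adjusted p = 0.102).

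The remaining calls in Trem2+/+ cells ended when 1 library or another was left out. Those of Fbl, Npm1 and Nob1 ended without any 1 of the tau libraries, and that of Wdr75 without tau replicate 1 or 2. Without Trem2+/+ replicate 3 the log2 change of Fbl went from -0.97 to -0.35, that of Npm1 from -0.82 to -0.27, that of Wdr75 from -0.68 to -0.41 and that of Nob1 from -0.54 to -0.29, none of which passed the threshold then. Nop16, at -1.13, lay between -1.40 and -0.48 with 1 library left out at a time and lost its call without tau replicate 3 (adjusted p = 0.0552). Nop58 (-0.38) and Utp20 (-0.54) lost theirs under 4 and 5 of 6 such fits, at changes between -0.46 and -0.28 and between -0.79 and -0.36. With both length-shifted libraries dropped, Nop58 stood at -0.39 (adjusted p = 0.01) and Utp20 at -0.78 (adjusted p = 3.28e-08). In that fit Fbl (-0.33), Npm1 (-0.25), Wdr75 (-0.40) and Nop16 (-0.46) were called lower too, at smaller changes than over all libraries, and Nob1 (-0.27, adjusted p = 0.0693) was not. Polr1b, the second largest subunit of RNA polymerase I, was like Utp20 in having a larger change without Trem2+/+ replicate 3. It measured 17.9, 18.6 and 9.99 CPM without tau, against 12.2, 10.7 and 11.0 CPM with it, at a log2 change of -0.46 (SE 0.177, adjusted p = 0.0667) that became -0.72 and was called without replicate 3. In the fit that left out both length-shifted libraries, 17 genes were called lower and 1, Wdr43 (0.42), higher, beside 41.4% of all genes, and 11 of the 12 were shared. Mybbp1a then fell by 0.26 (adjusted p = 0.00878), where the log2 change over all libraries was 0.08.

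In R47H/+ cells tau lowered 6 of the 40 genes and raised 2, 20% beside 27.6% of all genes called either way, 12.6% called lower and 15% called higher. None of the 4 abundant nucleolar genes was called over all libraries, while 3 of the 4 were called lower without both length-shifted libraries, beside 21.1% of all genes. The median log2 change of the 40 was -0.14 against 0.00 for all genes. Utp20, a large scaffold protein of the small subunit precursor, measured 38.0, 39.3 and 37.0 CPM without tau, against 21.1, 13.3 and 20.7 CPM with it. The lowest of these is replicate 2, the length-shifted one, and the others lie well below the libraries without tau. Utp20 fell by 1.05 (SE 0.191, adjusted p = 0.000588, edgeR), and by 0.86 at the least with 1 library left out. Polr1b measured 15.8, 15.4 and 15.6 CPM without tau, against 9.25, 8.21 and 8.40 CPM with it. It fell by 0.86 (SE 0.180, adjusted p = 0.00192), whereas Polr1a, the largest subunit, measured 28.4, 27.6 and 27.9 CPM against 29.6, 21.8 and 30.6 CPM, and Rrn3, the factor that recruits the polymerase, 31.6, 34.4 and 30.7 CPM against 30.2, 27.0 and 29.4 CPM. Neither Polr1a (-0.04, adjusted p = 0.939) nor Rrn3 (-0.16, adjusted p = 0.329) passed the test.

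The genes that rose with tau in R47H/+ cells were Wdr43 and Bop1. Wdr43, an early small subunit factor, measured 40.4, 39.7 and 36.4 CPM without tau, against 56.2, 55.3 and 56.4 CPM with it. The tau libraries agree closely and lie above all the others of this genotype and treatment, and Wdr43 rose by 0.53 (SE 0.130, adjusted p = 0.00594, edgeR). Bop1 rose by 0.39 (SE 0.110, adjusted p = 0.0141), from 35.4, 36.2 and 33.8 CPM to 41.4, 52.5 and 44.2 CPM, and its call ended without R47H/+ replicate 3 (0.36, adjusted p = 0.0605) or tau replicate 2 (0.29, adjusted p = 0.0771). Dkc1 fell by 0.51 and held in every alternative. Gnl3 (-0.50) lost its call in 5 of 6 fits that left out 1 library, at changes between -0.59 and -0.43, and Rrp1b (-0.80) in all 6, at changes between -0.87 and -0.69. When both length-shifted libraries were dropped, Gnl3 (-0.60, adjusted p = 0.000454) and Rrp1b (-0.70, adjusted p = 0.000881) were called at similar sizes. When both length-shifted libraries were left out, 13 genes were called lower and the same 2 higher, beside 42.8% of all genes, and Npm1 (-0.62) and Ncl (-0.41) were then among those that fell.

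The tau responses of both genotypes were compared directly, as the change in R47H/+ cells minus the change in Trem2+/+ cells. Of the 40 genes only Myc differed, 2.50% beside 5.37% of all genes called either way and 2.05% called in its direction. The difference for Myc was 1.20 on the log2 scale (SE 0.251, adjusted p = 0.00826, edgeR), a smaller fall in R47H/+ cells, which started at 7.58 CPM on average where Trem2+/+ cells started at 17.6 CPM and ended at 3.72 and 3.74 CPM. It was called in every alternative and lay between 1.07 and 1.38 with 1 library left out. In DESeq2 Rrs1 (0.52) and Grwd1 (1.09) were called as well. With both length-shifted libraries left out, Ncl (-0.42, adjusted p = 0.0221) and Npm1 (-0.37, adjusted p = 0.0373) were called in the other direction, since their falls were then larger in R47H/+ cells. With tau in both genotypes, Utp20 was the only gene of the 40 that differed, 2.50% beside 9.5% of all genes called either way and 4.24% called lower. It averaged 18.4 CPM in R47H/+ cells and 28.7 CPM in Trem2+/+ cells, a fall of 0.64 (SE 0.191, adjusted p = 0.0448), and this call was lost in each of the 6 fits without 1 library, at log2 changes between -0.75 and -0.45, and was made without both length-shifted libraries (-0.46, adjusted p = 0.000432).

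**Figure D4:**
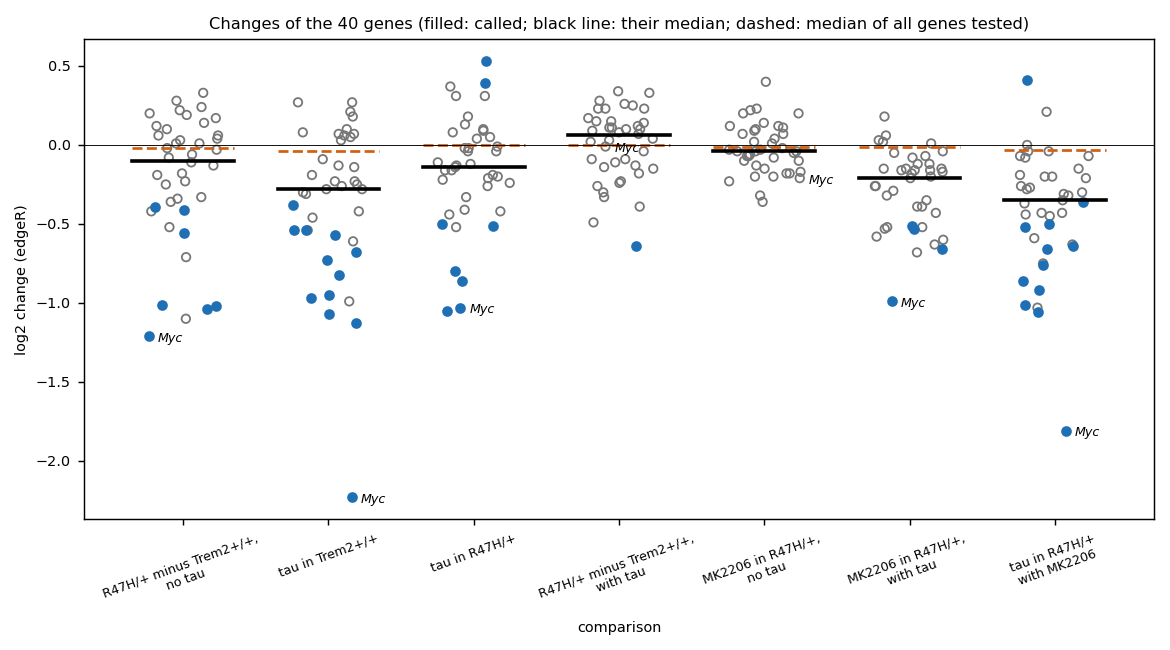
Points are the 40 genes in 7 comparisons, with the log2 change from edgeR upward; filled points passed an adjusted p of 0.05, the black line is the median of the 40 and the dashed line that of all genes tested. Myc is the lowest point in 4 of the 7 comparisons, and the medians lie furthest below the dashed line with tau in cells given MK2206.

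MK2206 alone changed none of the 40 genes in R47H/+ cells by the edgeR test, beside 2.55% of all genes, and DESeq2 also called 0. At an unadjusted p under 0.05 there were 2 of the 40. The median log2 change was -0.04 against -0.01 for all genes. Myc averaged 6.55 CPM with MK2206 and 7.58 CPM without, at a log2 change of -0.21 (SE 0.173, adjusted p = 0.838). Fitted alone, these 2 groups gave 3 calls among the 40 (beside 18.1% of all genes), and the model without both length-shifted libraries gave 1, Wdr12 (-0.36, adjusted p = 0.0343), beside 13.9% of all genes.

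With tau present, MK2206 lowered 4 of the 40 genes, 10.0% beside 3.04% of all genes called either way and 1.4% called lower. The log2 change was negative for 35 of the 40, with a median of -0.21 against -0.01 for all genes. Nop58, a core protein of the box C/D particles, measured 16.4, 20.4 and 17.3 CPM with tau alone and 12.3, 12.3 and 9.62 CPM with MK2206 and tau. It fell by 0.66 (SE 0.128, adjusted p = 0.0105, edgeR), and the call ended without tau replicate 2 (-0.56, adjusted p = 0.0586) or MK2206 and tau replicate 3 (-0.55, adjusted p = 0.0682). Myc fell by 0.99 (SE 0.198, adjusted p = 0.0122), and without tau replicate 2 or MK2206 and tau replicate 1 the change was -0.87 (adjusted p = 0.065) or -0.88 (adjusted p = 0.0824). Bop1 fell by 0.53 (SE 0.110, adjusted p = 0.0158), from 41.4, 52.5 and 44.2 CPM to 31.3, 32.4 and 32.3 CPM. The groups do not overlap, and its call ended in 4 of 6 fits without 1 library, at changes between -0.60 and -0.42. Rrs1 fell by 0.51 (SE 0.122, adjusted p = 0.0337), from 20.8, 22.3 and 20.7 CPM to 13.1, 16.6 and 14.9 CPM, and lost its call in 5 of those 6 fits, at changes between -0.60 and -0.43. Nop58 (-0.56), Myc (-0.87), Bop1 (-0.42) and Rrs1 (-0.48) were all called without both length-shifted libraries. Where these 2 groups were fitted alone, no gene of the 40 was called, although 15 had ranges that did not overlap, all lower with MK2206, beside 14.1% of all genes lower in this way. Without both length-shifted libraries, 11 genes were called lower and 1, Npm1 (0.37), higher, beside 12% of all genes, and Rrp12 (-0.75, adjusted p = 0.000437), a factor for export of the small subunit, then had the smallest p.

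The median of these genes shifted furthest with tau in R47H/+ cells given MK2206, a comparison that uses neither length-shifted library in its own groups. The log2 change was negative for 38 of the 40 genes, with a median of -0.35 against -0.03 for all genes. Of the 40, 11 were called lower and 1 higher, 30.0% beside 25.6% of all genes called either way, 11.3% called lower and 14.3% called higher. Gnl3 measured 29.8, 30.4 and 24.3 CPM with MK2206 and 13.4, 13.4 and 13.7 CPM with MK2206 and tau. It fell by 1.06 (SE 0.164, adjusted p = 0.000114, edgeR), and the libraries with tau differ by less than 1 CPM. Utp20 went from 37.2, 37.4 and 36.9 CPM to 18.7, 18.8 and 18.1 CPM, a fall of 1.01 (SE 0.191, adjusted p = 0.00079). Polr1b went from 15.1, 15.3 and 14.5 CPM to 8.87, 6.995 and 8.8 CPM, a fall of 0.86 (SE 0.181, adjusted p = 0.0018). Rrs1 fell by 0.66, Rrp12 by 0.64, Dkc1 by 0.52 and Utp15, an early small subunit factor, by 0.50, and these 4 calls, with those of Myc, Gnl3, Utp20 and Polr1b, held in every alternative. Grwd1 fell by 0.92 and lost its call without MK2206 replicate 2 (-0.83, adjusted p = 0.0537) or MK2206 and tau replicate 2 (-0.86, adjusted p = 0.056). Tsr1 (-0.76) and Nop58 (-0.36) lost theirs in each of 6 fits without 1 library, at changes between -0.82 and -0.64 and between -0.42 and -0.25, and both were called without both length-shifted libraries (-0.77, adjusted p = 3.28e-06, and -0.38, adjusted p = 0.00732). Wdr43 rose by 0.41 (SE 0.130, adjusted p = 0.0264), from 35.6, 40.6 and 37.4 CPM to 47.5, 54.4 and 49.4 CPM, and lost its call in 4 of those fits at changes between 0.36 and 0.47.

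The count in this comparison changed with the model. It went to 25 calls when the 2 groups were fitted alone, beside 50.2% of all genes, to 28 in the model without both length-shifted libraries, beside 48.0%, and to 19 with an offset for gene length, beside 31.9%. In the fit without both libraries all 4 of the abundant nucleolar genes fell, among them Mybbp1a (-0.65), Npm1 (-0.45) and Ncl (-0.36), as did 8 of 12 small subunit and 8 of 11 large subunit genes. Ranges did not overlap for 28 genes that were lower and 1 that was higher with tau, beside 28.5% and 27.1% of all genes.

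The tau responses without and with MK2206 in R47H/+ cells were also compared directly. No gene of the 40 passed this test in edgeR or in DESeq2, beside 0.377% of all genes, and 6 of the 40 had an unadjusted p under 0.05. The log2 difference was negative for 36 of the 40, with a median of -0.18 against 0.01. Myc, with a tau response of -1.03 without and -1.81 with MK2206, differed by -0.78 (SE 0.262, adjusted p = 0.331). Utp20 and Polr1b lie on the line of equal response in the plot of the 2 tau responses. Of the 6 genes called lower with tau in R47H/+ cells, 5 were also called lower with tau and MK2206, and 6 others were called lower there, while the direct test called none of the 40.

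**Figure D5:**
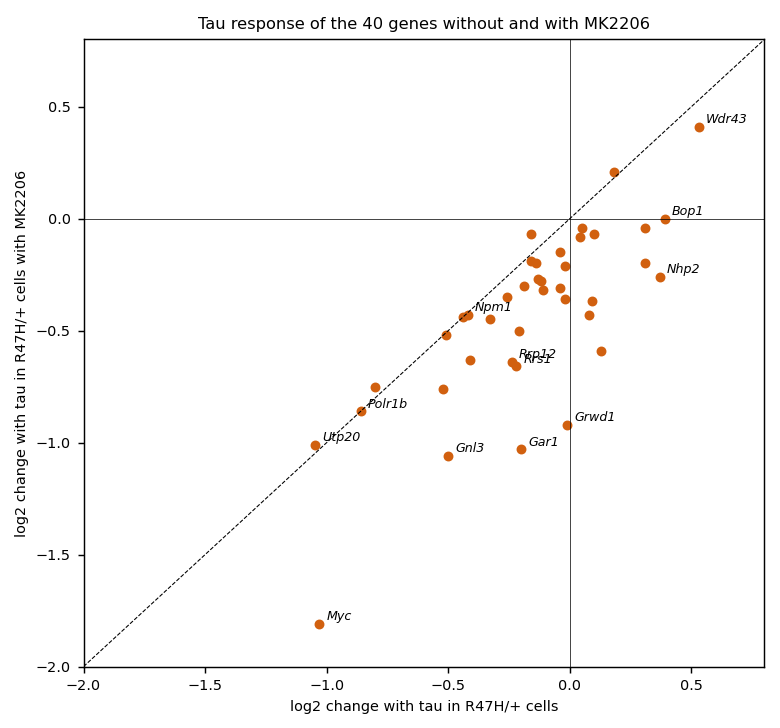
Each point is 1 of the 40 genes, with its log2 change with tau in R47H/+ cells across and in R47H/+ cells given MK2206 upward; the dashed line marks equal change and the groups share no library. Most points lie below the line, Utp20 and Polr1b on it, and Grwd1, Gar1 and Myc furthest below.

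Further lists of the pathway, chosen beside the 40, had shares of genes called lower with tau that lay above, near or below that of all genes. With tau in Trem2+/+ cells 6 of 40 further small subunit genes, 4 of 42 large subunit genes, 4 of 19 genes of the RNA polymerase I machinery and 4 of 13 exosome genes were called lower, against 2, 1, 0 and 0 higher. The lower calls make 15%, 9.52%, 21.1% and 30.8% of these lists, beside 12.1% of all genes, so those of the small and large subunit lie near the share of all genes. The exosome trims ribosomal RNA, and its cofactor gene Mphosph6 fell by 1.10. Ppan, a large subunit factor, fell by 0.90 and Utp18, a small subunit factor, by 0.60. Without both length-shifted libraries the counts lower were 12 of 40, 7 of 42, 5 of 19 and 3 of 13, beside 19.8% of all genes. The median of the 13 exosome genes was then 0.12, with 8 positive, against -0.42 with 2 positive over all libraries. With tau in R47H/+ cells the counts lower were 5 of 40, 0 of 42, 1 of 19 and 0 of 13 and those higher 3, 1, 0 and 0, beside 12.6% of all genes lower and 15% higher. Median log2 changes of these lists were 0, 0.03, 0.01 and 0.13 over all libraries. The change was positive for 12 of the 13 exosome genes, and Nat10, which acetylates ribosomal RNA, was at -0.58. Without both length-shifted libraries the medians there were -0.09, -0.04, -0.08 and -0.02, beside -0.03 for all genes. Of the 13 exosome genes 6 were then positive. The counts lower were 10 of 40, 4 of 42, 4 of 19 and 0 of 13 and those higher 3, 4, 0 and 1. Of all genes, 21.1% were called lower and 21.6% higher in that fit. With tau and MK2206 the counts lower were 6 of 40, 4 of 42, 0 of 19 and 0 of 13 and those higher 1, 1, 0 and 0, beside 11.3% of all genes lower, with Nat10 at -0.89, Las1l, a processing factor, at -0.71 and Nle1, a large subunit factor, at -0.80. Without both length-shifted libraries these last counts were 21 of 40, 14 of 42, 6 of 19 and 1 of 13, beside 25.3% of all genes called lower in that fit. MK2206 in the presence of tau lowered 1 of 40 small subunit genes, Bysl (-0.67), and none of the other 3 lists, beside 1.4% of all genes lower.

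Genes of the Myc network changed in both directions. Mxd1, a transcription factor that competes with Myc for the shared partner Max, rose with tau by 1.83 in Trem2+/+ cells, by 1.83 in R47H/+ cells and by 2.02 in R47H/+ cells with MK2206. Max rose by 0.81, 0.43 and 0.61 in the same comparisons, while Mxi1, a relative of Mxd1, fell by 0.91, 1.46 and 1.16. Without tau, Mxd1 (1.05) and Max (0.66) were higher in R47H/+ than in Trem2+/+ cells. MK2206 raised Mxi1 by 0.52 without tau and by 0.81 with it.

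Of 20 genes for purine and pyrimidine synthesis, 5 were called lower with tau in Trem2+/+ cells, 6 in R47H/+ cells and 8 in R47H/+ cells with MK2206, and 0 higher in each. These are 25%, 30% and 40% of the list, beside 12.1%, 12.6% and 11.3% of all genes called lower, with Adssl1 at -1.81, -1.44 and -1.92. Prps2, which makes the shared precursor, fell with tau by 1.64 in R47H/+ cells and by 1.43 with MK2206. Of 22 cell cycle genes, 4 rose and 1 fell with tau in Trem2+/+ cells, 10 rose and 0 fell in R47H/+ cells, and 7 rose and 1 fell in R47H/+ cells with MK2206. The genes that rose make 18.2%, 45.5% and 31.8% of the list, beside 14.4%, 15% and 14.3% of all genes called higher, so the count in Trem2+/+ cells lies near the share of all genes. Without both length-shifted libraries 7, 13 and 7 rose and 2, 0 and 3 fell. In that fit 21.6%, 21.6% and 22.7% of all genes were called higher and 19.8%, 21.1% and 25.3% lower. Ccnd2, a cyclin, rose by 2.14, 2.73 and 2.52 and Tpx2, a spindle protein, by 1.62, 2.65 and 2.66. MK2206 without tau lowered 3 of the 22 and raised 0, 13.6% lower beside 1.36% of all genes, with 21 of the 22 negative. The direct test of the tau responses without and with MK2206 called 0 of the 22. In the presence of tau MK2206 lowered 7 of the 22 and raised 0, 31.8% lower beside 1.4% of all genes. Mcm5, part of the replicative helicase, was at -1.43. Of 21 genes of RNA polymerase III, which makes the smallest ribosomal RNA, Polr3g fell with tau by 1.13 in Trem2+/+ and by 1.52 in R47H/+ cells and Polr3c rose by 0.61 and 0.65. Of 28 genes of the Akt and mTORC1 pathway, 5 rose and 2 fell with tau in Trem2+/+ cells and 2 rose and 7 fell in R47H/+ cells. With MK2206, 4 rose and 3 fell with tau. The genes that fell make 7.14%, 25% and 10.7% of the list, beside 12.1%, 12.6% and 11.3% of all genes. Those that rose make 17.9%, 7.14% and 14.3%, beside 14.4%, 15% and 14.3%. Without both length-shifted libraries 10, 10 and 11 of the 28 fell and 7, 6 and 7 rose. Those that fell then make 35.7%, 35.7% and 39.3%, beside 19.8%, 21.1% and 25.3% of all genes. The direct test of the genotype by tau difference called 1 of the 28 over all libraries. Within this list Irs2, an adaptor of insulin signalling to Akt, fell by 1.84, 2.50 and 2.23 in the 3 tau comparisons. Translation initiation factors gave 3 of 24 lower and 1 higher with tau in Trem2+/+ cells, where 12.5% lower stands beside 12.1% of all genes. In R47H/+ cells 2 were lower and 5 higher, 20.8% beside 15% of all genes called higher, and Eif4e, which binds the mRNA cap, rose by 0.73. The direct test of the genotype by tau difference called 1 of the 24.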

How the data were processed

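The 18 RNA-seq libraries came from cultured mouse microglia, 3 for each of 6 groups. The authors deposited raw counts for each gene; per the submitters' processing notes STAR, featureCounts and DESeq2 were named with GRCm38 (mm10), and versions and strand setting are not given in the sources used here. Chromosome, start, end and gene length in base pairs come from the same deposited table, and 38 of the 40 genes had the same coordinates in GENCODE M21.

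Counts were fitted in R 4.3.3 with edgeR 4.0.16: filterByExpr (13267 genes), TMM scaling and a single quasi-likelihood fit of all groups (12 residual degrees of freedom). Each of 7 pairwise contrasts and 2 interactions had a two-sided F-test, adjusted by Benjamini-Hochberg over all genes tested, at 0.05. The heat map used log2 CPM with a prior count of 2. RPKM is CPM per kilobase of the deposited gene length.

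The 40 genes and the 16 further lists were chosen with earlier results of these data known. Named genes were 9 given genes (Myc, Polr1a, Polr1b, Rrn3, Npm1, Ncl, Fbl, Nop56 and Dkc1), up to 6 higher and 6 lower called genes per comparison, those whose call turned on a length-shifted library, and up to 2 genes in each direction per further list. Alternatives replaced TMM by RLE, dropped the filter, used DESeq2 1.42.0, fitted only the groups in question, added the replicate number as a block, or dropped 1 library at a time. A further 2 were chosen after seeing the data: a fit without either length-shifted library, and an offset by lowess on gene length (span 0.3). The edgeR script was also tested on simulated data.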

Additional observations from a re-analysis of the deposited data

Results flagged for a closer look

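Myc was singled out because its tau response differed between genotypes by a direct test: the log2 change with tau was -2.23 in Trem2+/+ cells and -1.03 in R47H/+ cells, a difference of 1.20 (SE 0.251, adjusted p = 0.00826, edgeR). The 6 libraries with tau and no MK2206 lay between 3.31 and 4.35 CPM, and the groups without tau lay between 15.5 and 21 CPM in Trem2+/+ and between 6.58 and 9.30 CPM in R47H/+ cells.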

How the results depend on the processing

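Of 45 calls of a gene in a comparison, 19 held in every alternative and 26 were lost in at least 1. The number of the 40 genes called moved as follows. Fitting the compared groups alone gave 1 for R47H/+ against Trem2+/+ cells, 4 for tau in Trem2+/+ cells, 0 for R47H/+ against Trem2+/+ cells with tau, 3 for MK2206 without tau, 0 for MK2206 with tau and 25 for tau with MK2206, beside 3.81%, 10.5%, 9.56%, 18.1%, 1.8% and 50.2% of all genes. Leaving out both length-shifted libraries gave, in the same order, 12, 18, 3, 1, 12 and 28, beside 28.9%, 41.4%, 23.3%, 13.9%, 12% and 48% of all genes, with 15 (beside 42.8%) for tau in R47H/+ cells and 3 (beside 11.9%) for the genotype by tau difference. The share of all genes called thus also rose once these libraries were left out. Npm1 then turned to 0.40 for R47H/+ against Trem2+/+ cells and to -0.37 for the genotype by tau difference, and Mybbp1a with tau in Trem2+/+ cells to -0.26, or -0.28 without Trem2+/+ replicate 3 alone, where other single libraries left out gave up to 0.28. The lowess offset gave 19 (beside 31.9%) for tau with MK2206, and no count filter gave 1 (beside 0.88%) for MK2206 with tau. DESeq2 gave 3 (beside 9.37%) for the genotype by tau difference. For these the cause was not tested. RLE scaling moved no count by more than 1.5 times.

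With each library left out in turn the counts ran from 2 to 9 for R47H/+ against Trem2+/+ cells, 6 to 15 for tau in Trem2+/+ cells, 5 to 7 for tau in R47H/+ cells, 0 to 0 for R47H/+ against Trem2+/+ cells with tau, 1 to 3 for MK2206 with tau, 8 to 11 for tau with MK2206 and 1 to 5 for the genotype by tau difference. In the same order the shares of all genes called ran from 9.52% to 21.9%, 19.4% to 30.9% and 19.8% to 24.8%. Next came 4.64% to 7.68%, 1.11% to 1.8%, 19.9% to 21.5% and 3.46% to 11.3%. An arm of 2 libraries was assumed to vary like the others.

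Replicate numbers are shared between groups, but libraries with the same number did not deviate together: over 45 pairs r ran from -0.634 to 0.49 with a median of -0.00153, and 4 pairs were over 0.1. With the replicate number as a block 5, 10, 7, 0, 0, 3 and 10 of the 40 were called in the 7 pairwise comparisons. The shares of all genes called were 13%, 24%, 25.2%, 7.86%, 1.94%, 1.88% and 24.1%. The count of 0 for R47H/+ against Trem2+/+ cells with tau was the only one moved. Counting error was widest for Myc, Polr1e and Gar1, whose lowest counts in a library were 31, 37 and 41.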
